A study of Mus musculus with 180 samples.

Results

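This report describes 3 samples of mouse bone marrow-derived macrophages (BMDM) that were pre-treated with the clinical kinase inhibitor (CKI) Lenvatinib and stimulated with LPS, and compares them with the 6 samples that received the vehicle DMSO in its place. They were chosen by their labels alone and are 9 of the 180 samples of the series, in which 58 CKIs were profiled. The table holds 45070 genes, of which the 12714 whose normalized values averaged 10 or more across the series were tested. All cells were wild type, all were exposed to Lenvatinib or DMSO for 1 h and then to 10 ng/ml LPS for 2 h, and PolyA RNA was sequenced after SMART-seq2 amplification. No cells without LPS were among these samples, so the comparison shows what the inhibitor changed in stimulated macrophages and not what LPS itself induced. Per the methods, the marrow came from young male C57/BL6 mice and RNA was taken from 3 independent biological replicates. How the 6 DMSO samples relate to 3 replicates is not stated, and the main tests below take them as independent. Each CKI was, also per the methods, used at the concentration that displaces its intended target from kinobeads at the midpoint of the curve. The dose of Lenvatinib is not in the labels and no dose response could be read. The labels split the DMSO samples into 2 sets of 3 and do not say to which set the Lenvatinib samples belong, so both sets served as the reference. With 0 of the 12714 genes different between these sets at an adjusted p under 0.05 and 310 at an unadjusted p under 0.05 (limma), the sets were kept together.

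Lenvatinib is a multi-kinase inhibitor developed against the VEGF receptors, and it also binds FGF receptors, PDGFRA, KIT and RET. In the study it was chosen for RIPK2, the kinase that relays signals from the intracellular peptidoglycan sensors NOD1 and NOD2. LPS acts on macrophages through TLR4, which signals by way of MyD88 to NF-kB and the MAP kinases and by way of TRIF, TBK1 and IRF3 to the gene of interferon beta, Ifnb1. Secreted interferon beta then acts back on the cells through its receptor and the JAK kinases, and the interferon-stimulated genes follow.

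The cells expressed most genes that define macrophages, with Csf1r at 24120 to 25418 over the 9 samples. Of 25 markers of macrophage identity 24 averaged 10 or more across the series, and Marco reached at most 6 in the 9 samples. The summed normalized value of the 25 markers lay between 220115 and 391402 in the DMSO samples and between 304350 and 412707 in the Lenvatinib samples. Markers of T and NK cells summed to at most 24 and markers of mast cells and basophils to at most 5. Neutrophil markers summed to between 371 and 1182 with DMSO, with a median of 584, and to between 911 and 1675 with Lenvatinib. Over the 9 samples S100a8 reached 464, Ngp 433 and S100a9 367, while Ly6g reached at most 2. Retnlg was at 0 to 1 with DMSO and at 7, 3 and 6 with Lenvatinib. B cell markers summed to at most 21, dendritic cell markers to at most 191 and stromal markers to at most 545. Markers of erythroid cells and platelets summed to 2817 to 6788 with DMSO and 5913 to 7574 with Lenvatinib, nearly all of it the chemokine Pf4. The other platelet markers Ppbp and Itga2b reached at most 33 and 6, and the haemoglobin genes at most 1. The part of other cells in the differences below was not tested, and in bulk RNA fewer cells of a type and less RNA per cell cannot be told apart. The normalized values of all genes summed to 11864208, 10937013 and 11993161 in the Lenvatinib samples and to between 9481416 and 11094387 with DMSO, which corresponds to an estimated 10.4 M to 12.4 M reads on genes with Lenvatinib and 11.4 M to 13.6 M in the 5 DMSO samples where it could be estimated.

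Of the 12714 genes tested, 1446 (11.4%) were higher and 102 (0.802%) were lower with Lenvatinib than with DMSO (limma moderated test on log2(normalized value + 1), Benjamini-Hochberg adjusted p under 0.05). Most of the changes were small. Of the genes that rose 309, and of those that fell only Abhd3 (-1.03) and Gm16675 (-1.02), 2 genes, changed by 1 or more on the log2 scale, and the median change was 0.74 among the genes that rose and -0.43 among those that fell. In 927 of the 1446 genes and in 59 of the 102 the 3 Lenvatinib values lay beyond all 6 DMSO values. Over all tested genes 12% were wholly above and 1.4% wholly below. As the 1446 and the 102 were picked by a test on these same values, their larger share is no further evidence. The median of all tested genes was itself 0.18 above DMSO, so that a gene with a log2 fold change of 0.18 stood still relative to the rest. When the samples were rescaled by the median of ratios, this shift fell to 0.01 and the split changed to 174 genes (1.37%) higher and 462 (3.63%) lower, the 174 being among the 1446 and the 102 being among the 462.

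**Figure D1:**
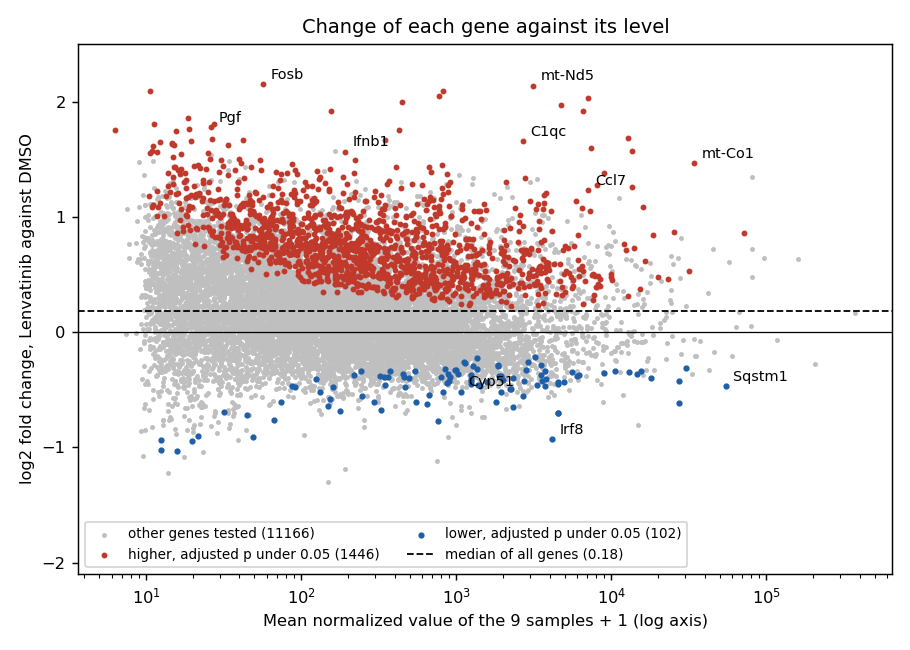
Log2 fold change of each of the 12714 tested genes with Lenvatinib against DMSO, plotted against its mean normalized value in the 9 samples. The 1446 genes that rose (red) reach 2.15 for Fosb, the 102 that fell (blue) reach -1.03 for Abhd3, and the dashed line marks the median of all genes at 0.18.

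These counts rested on few samples. Without Lenvatinib replicate 3, 0 genes passed the threshold in either direction, although 2641 had an unadjusted p under 0.05, so that no gene named below as having risen or fallen passed in its absence. Without replicate 1 or 2 of Lenvatinib, 337 and 226 genes were higher and 37 and 17 lower. Without the DMSO sample of set 2 replicate 2, 4 genes were higher and 0 lower (Chic2, Fosb, Npy and Slc16a6), and without set 2 replicate 1 there were 2604 and 337. Leaving out the other DMSO samples gave 1801, 872, 364 and 803 genes higher and 163, 44, 17 and 55 lower for set 1 replicates 1, 2 and 3 and set 2 replicate 3. Against set 1 alone 3 genes passed (Chic2, Fosb and Npy) and against set 2 alone 5 (Gm12589, Kmt5a, Slc16a6, Ubqln1 and Zcchc17), all higher with Lenvatinib.

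The samples also differed in the share of their transcripts that came from the mitochondrial genome, a measure that moves with the handling of cells and RNA as well as with biology. The 13 mitochondrially encoded protein genes made up 1.35%, 1.14% and 2.00% of the normalized values in the Lenvatinib samples. In the DMSO samples they made up 0.733%, 0.427% and 0.523% in set 1 and 1.05%, 0.301% and 0.548% in set 2. Every Lenvatinib sample was thus above every DMSO sample, with means of 1.50% ± 0.448 (SD, n = 3) and 0.597% ± 0.264 (SD, n = 6) and a difference of 0.898 percentage points (exact two-sided permutation test over 84 splits, p = 0.0238, the smallest the design allows). This test takes the 6 DMSO samples as independent. With splits made only within replicate numbers, the exact permutation p was 0.0741, also the smallest possible. Among the 59 conditions Lenvatinib had the third highest share and DMSO ranked 46, and the means of the other 57 inhibitors ran from 0.396% to 1.91%, 44 of them above DMSO.

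The genes that rose with Lenvatinib followed this share in part among the DMSO samples too. The 1446 were picked by a test on these same values and include the 13 mitochondrially encoded genes. Their height in the Lenvatinib samples is thus no further evidence, and part of the agreement with the share is built in. Averaged over the 1446 genes, the log2 deviation from the mean of the DMSO samples was 0.75, 0.67 and 0.92 in the Lenvatinib samples, whose replicate 3 had the highest mitochondrial share. It was 0.41 in DMSO set 2 replicate 1, the DMSO sample with the highest share, and -0.37 in set 2 replicate 2, the one with the lowest. In set 1 it was 0.18, -0.01 and -0.18, and in set 2 replicate 3 it was -0.03. Replicate 3 of set 1 lay below replicate 2, although its share was higher. When the share was added to the model as a covariate, 2 genes (0.0157%), Fosb and Npy, were higher and 0 lower (limma). Of the 1446 genes, the median log2 fold change was then 0.34. Lenvatinib and a high mitochondrial share go together in these 9 samples, and they cannot be told apart here. The share of cytosolic ribosomal protein transcripts and the number of genes detected at a value of 10 or more were also higher in all 3 Lenvatinib samples than in all 6 DMSO samples, with means of 2.71% against 2.23% and of 13003 against 12520 genes (p = 0.0238 for each, exact two-sided permutation test). Most other inhibitors were above DMSO in these measures too, 56 of 57 for the ribosomal share, in which Lenvatinib ranked 14 and DMSO 58 of 59, and 52 of 57 for the genes detected, in which they ranked 3 and 54.

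**Figure D2:**
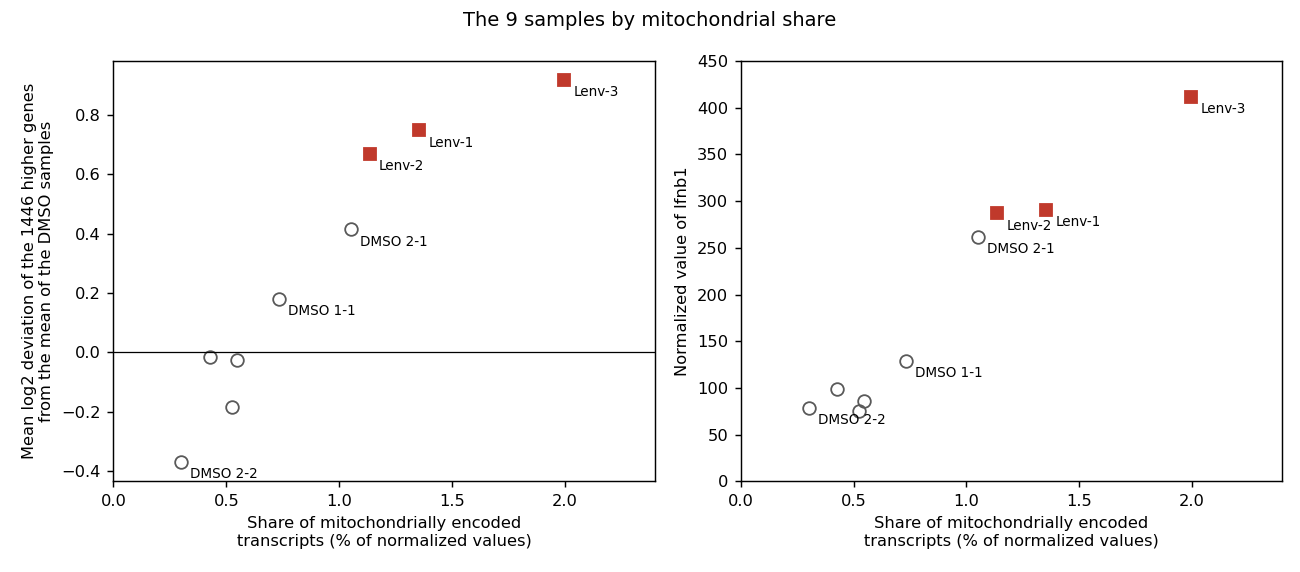
Share of mitochondrially encoded transcripts in each of the 9 samples, against the mean log2 deviation of the 1446 genes that rose (left) and against the normalized value of Ifnb1 (right). The 1446 genes were picked by a test on these samples, which fixes the high place of the Lenvatinib samples on the left. The 3 Lenvatinib samples (squares, Lenv) lie at the upper right, and DMSO set 2 replicate 1 (DMSO 2-1), with a share of 1.05% and an Ifnb1 value of 262, lies nearest to them among the DMSO samples (circles).

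Ifnb1, at chromosome 4, 88522025 to 88522794 on the minus strand of mm10, encodes interferon beta and was a gene of particular interest to the study. Its promoter is shown because it carries the sites through which LPS acts, the NF-kB and IRF elements of the interferon beta enhanceosome. The 80 bases below run from position -170 to -91, counted from the annotated start at 0 (RefSeq, GRCm38.p6, chr4:88522885-88522964, minus strand), with matches to the kappa B letters of this promoter, GGGAAATTCC, and to the IRF core AANNGAAA in capitals.
Ifnb1: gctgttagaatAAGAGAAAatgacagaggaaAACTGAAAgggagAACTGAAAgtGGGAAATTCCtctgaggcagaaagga
The printed stretch holds 3 matches to the IRF core and the kappa B letters, all on the printed strand and without overlap. On either strand, 0.11% of the 32851 promoters of 300 bases in the RefSeq table hold the kappa B letters and 23.9% hold the IRF core.

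Ifnb1 had normalized values of 291, 287 and 412 with Lenvatinib. With DMSO it ranged from 75 to 262 with a median of 92.5. The groups did not overlap, but the DMSO sample of 262, set 2 replicate 1, stood well apart from the other 5, of which the highest was 129. On the log2 scale Ifnb1 rose by 1.56 (SE 0.40, adjusted p = 0.0215, limma). The exact two-sided permutation p was 0.0238, again the smallest the design allows with the 6 DMSO samples taken as independent. The fold change fell to 0.71 with the mitochondrial share in the model and no longer passed (adjusted p = 0.26, limma). Without Lenvatinib replicate 3 it was 1.39 (adjusted p = 0.179, limma) and without DMSO set 2 replicate 2 it was 1.47 (adjusted p = 0.0674, limma). Among the 59 conditions Lenvatinib ranked sixth for Ifnb1, after Omipalisib, Mubritinib, IMD0354, Lapatinib and BGT226, and DMSO ranked 53.

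Few genes downstream of interferon beta passed the test. Of 70 interferon-stimulated genes tested, 0 rose and 1 fell, a share of 1.43% against 12.2% of all tested genes, and their median log2 fold change of 0.27 was close to that of all genes. Isg15, a ubiquitin-like interferon-induced protein, had values of 7203, 2241 and 5502 with Lenvatinib and from 1096 to 3901 with DMSO, with overlapping groups and a log2 fold change of 1.30 (SE 0.51, adjusted p = 0.0711, limma). The gene that fell was Irf8, a transcription factor that directs monocyte and macrophage development, with values of 4263, 1978 and 1804 against 3680 to 7541 with DMSO (log2 fold change -0.93, SE 0.31, adjusted p = 0.0384, limma). Replicate 1 of Lenvatinib lay within the DMSO range for Irf8, and the other two samples lay far below it. Ifnar2, a chain of the receptor for interferon beta, fell from a median of 2450 to values of 1817, 1764 and 1590 (log2 fold change -0.49, SE 0.14, adjusted p = 0.0234, limma). The interferon alpha genes Ifna1, Ifna2, Ifna4 and Ifna5 had values of at most 4 and were not tested.

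Of the 12 target kinases on the list 5 were tested, and 0 of them passed (limma), with 1 lower after the median of ratios. Ripk2 had values of 979, 739 and 754 with Lenvatinib and from 820 to 2189 with DMSO, and its log2 fold change was -0.47 (SE 0.23, adjusted p = 0.139, limma). The VEGF receptor genes Kdr and Flt1 lay between 46 and 356 and between 18 and 64 over the 9 samples, the FGF receptor genes at or below 5, and Ret was at 0 in all of them. In the pathway of NOD1, NOD2 and RIPK2, 0 of 17 tested genes were higher after the median of ratios. In the deposited scaling 1 rose (5.88%, against 11.4% of all tested genes). It was Otulin, a deubiquitinase that removes linear ubiquitin chains, at 64, 35 and 55 against 15 to 36 (log2 fold change 1.10, SE 0.35, adjusted p = 0.0348, limma). Among the ligands of the target receptors, 1 of 6 tested passed (16.7%, against 12.2% of all tested genes). It was Pgf, which encodes placental growth factor and binds the VEGF receptor FLT1. It rose from a DMSO range of 5 to 30, with a median of 12, to 38, 36 and 66 (log2 fold change 1.78, SE 0.52, adjusted p = 0.0284, limma).

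Along the LPS receptor, 1 of 17 genes of the MyD88 branch (5.88%) and 1 of 10 genes of the TRIF branch (10%) passed, against 12.2% of all tested genes. After the median of ratios 0 were higher in both, and 4 and 2 were lower. Irak1, a kinase that acts just downstream of MyD88, rose by 0.97, and Ticam2, the adaptor TRAM that brings TRIF to TLR4, fell by 0.46. Of 21 NF-kB subunits and feedback genes 1 rose and 2 fell (14.3%, against 12.2% of all tested genes). Rescaling by the median of ratios gave 0 higher and 6 lower. Zc3h12c, an RNase that limits inflammatory transcripts, rose by 0.81, whereas Nfkb2, the p100 subunit, and Sod2, a mitochondrial superoxide dismutase induced by NF-kB, fell by 0.42 and 0.33. Of 18 inflammatory cytokines 0 passed, with a median log2 fold change of 0.42. Tnf had values of 14032, 8930 and 15154 with Lenvatinib and from 6668 to 8932 with DMSO, so that replicate 2 fell within the DMSO range, and its log2 fold change was 0.68 (SE 0.31, adjusted p = 0.107, limma). Of 15 chemokines 2 rose (13.3%, against 11.4% of all tested genes), and 1 was higher after the median of ratios. Ccl7, a monocyte attractant, reached 10968, 9366 and 13916 against 3777 to 7874 with DMSO (log2 fold change 1.23, SE 0.28, adjusted p = 0.0203, limma). The neighbouring gene of a related monocyte attractant, Ccl2, reached 9513, 10268 and 10673 against 6977 to 8431 (log2 fold change 0.40, SE 0.12, adjusted p = 0.0308, limma). Both groups of values were separate from DMSO, and Ccl7 changed the more.

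Fosb had the largest rise of all tested genes. It encodes a partner of JUN in the AP-1 transcription factor and is transcribed within minutes of growth factor or stress signals. Its values were 78, 169 and 103 with Lenvatinib and ranged from 17 to 40 with DMSO, with a median of 22.5. The log2 fold change was 2.15 (SE 0.44, adjusted p = 0.00932, limma), and it was 2.25 with the mitochondrial share in the model (adjusted p = 0.0253, limma). Of the 22 settings run Fosb passed in 19, more than any other gene, and Npy, which encodes neuropeptide Y, in 18. By its mean log2 value of Fosb, Lenvatinib ranked 5 of the 59 conditions, after PF04691502, Omipalisib, BGT226 and OSI930, and DMSO ranked 56. The bases from -100 to -21 of Fosb are shown because they lie in the proximal promoter of the gene that changed most (RefSeq, GRCm38.p6, chr7:19310066-19310145, minus strand), with the match to TGACG, the core of the cAMP response element, in capitals.
Fosb: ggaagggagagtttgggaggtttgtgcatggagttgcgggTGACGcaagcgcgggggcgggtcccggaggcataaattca
On either strand TGACG was found in 20.8% of all promoters in the RefSeq table, in 31.2% of those of the tested genes and in 31.6% of those of the genes that rose, 1012 of which had an entry.

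Other immediate-early and MAP kinase feedback genes moved less. Of 26 genes of AP-1, the EGR family and similar early genes 4 rose and 1 fell, a share of 19.2% against 12.2% of all tested genes, and after the median of ratios 1 was higher and 1 lower. Srf, the serum response factor that drives many of them, rose from a DMSO range of 35 to 48 to 101, 69 and 82 (log2 fold change 0.93, SE 0.26, adjusted p = 0.0256, limma). Ier3 and Ier5 rose by 0.58 and 0.62, and Atf3, which restrains inflammatory transcription, fell by 0.37. Of 15 feedback genes of ERK and p38, 3 rose (20%), the phosphatases Dusp6 and Dusp7 and the RAF inhibitor Spred2, and after the median of ratios 1 was higher and 1 lower. Dusp7 had values of 103, 105 and 106, all above the DMSO range of 37 to 68 (log2 fold change 1.08, SE 0.23, adjusted p = 0.012, limma).

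Genes of macrophage function that rose were found among complement, chemokine receptor and MHC class II genes. Of 24 macrophage identity genes 5 rose, a share of 20.8% against 11.4% of all tested genes, and 0 were higher after the median of ratios. C1qc, a chain of complement C1q, reached 5524, 4387 and 4326 against 842 to 3478 with DMSO (log2 fold change 1.66, SE 0.52, adjusted p = 0.0344, limma). Cd68, a lysosomal macrophage marker, and Ccr2, the receptor for CCL2, rose by 1.27 each, Trem2, a lipid-sensing receptor, by 0.85 and Cx3cr1, the fractalkine receptor, by 0.79. For Cd68 replicate 2 of Lenvatinib, at 8596, lay below the highest DMSO sample, at 11311. Of 18 antigen presentation genes, the MHC class II genes H2-Aa, H2-Ab1, H2-Eb1 and H2-DMb1 rose, and Cd83, a marker of maturation, fell, a share of 27.8% against 12.2% of all tested genes. The balance turned with the scaling, to 1 higher and 3 lower after the median of ratios. H2-Eb1 had values of 1282, 1285 and 1319 against 395 to 846 (log2 fold change 1.25, SE 0.32, adjusted p = 0.0215, limma). Cd83 had values of 10679, 11591 and 10770 against 12239 to 15779 (log2 fold change -0.35, SE 0.11, adjusted p = 0.0328, limma). Camp, a granule peptide of neutrophils, was the only one of 8 tested neutrophil markers to pass (12.5%, against 11.4% of all tested genes). Its values were 70, 36 and 49 against 7 to 35 with DMSO. Of the 8, 7 were above DMSO, as were 8585 of all 12714 tested genes. Their median log2 fold change was 1.03, against 0.58 for the macrophage identity genes. After the median of ratios 0 of the 8 passed, and these medians were 0.86 and 0.41. The part of neutrophils in the rises above was not tested.

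**Figure D3:**
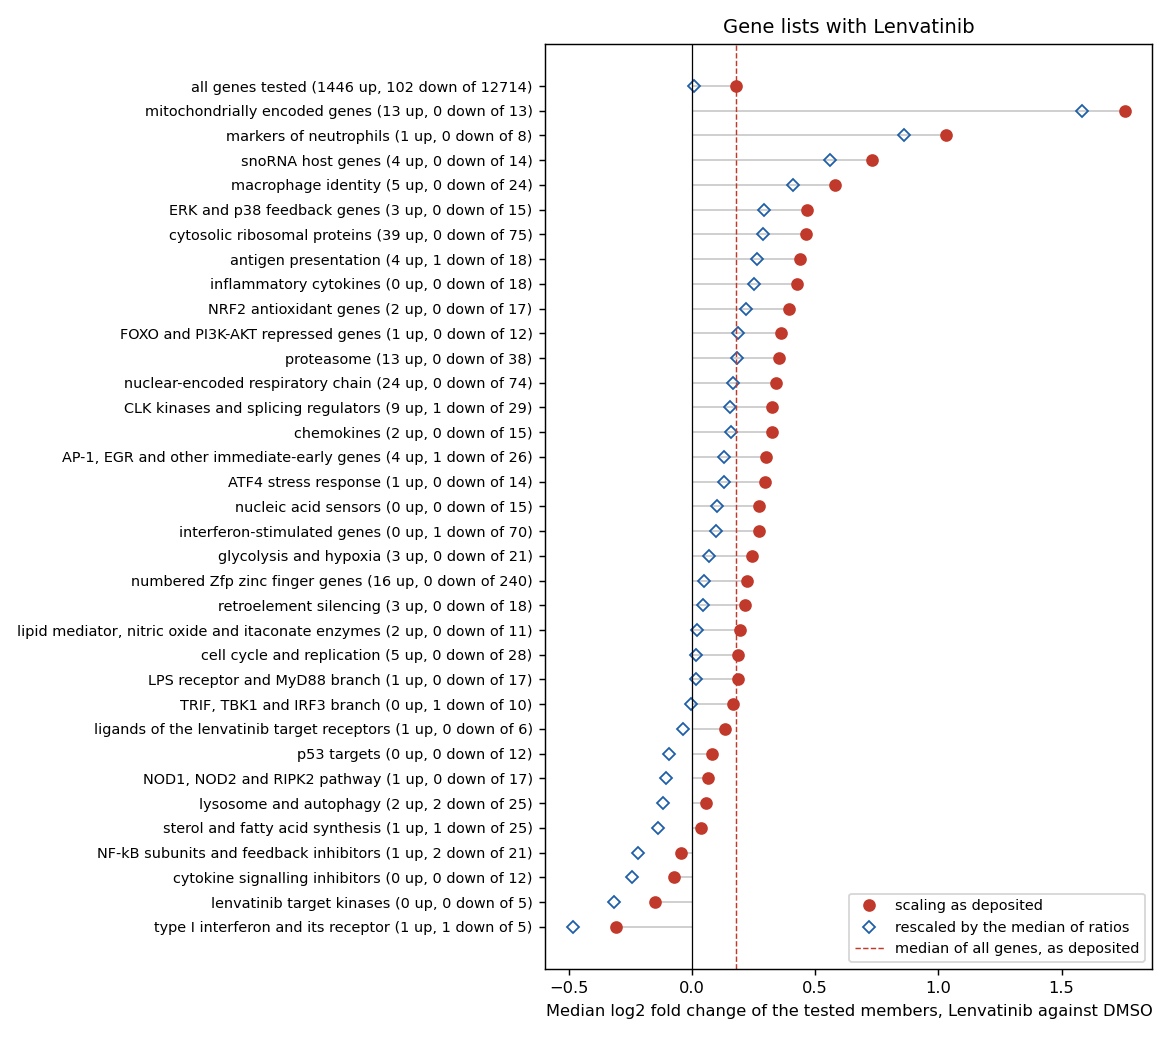
Median log2 fold change of each gene list with at least 5 tested members, with the counts of members that rose and fell, in the deposited scaling (circles) and after rescaling by the median of ratios (diamonds). The mitochondrially encoded genes lie farthest to the right, at 1.76 and 1.58, and most other lists lie near the median of all genes (dashed line, 0.18).

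Among genes of respiration, translation and protein turnover many rose and none fell in the deposited scaling. All 13 mitochondrially encoded genes rose, by between 1.26 for mt-Co3 and 2.14 for mt-Nd5. After the median of ratios 2 of the 13 passed, with a median log2 fold change of 1.58 against 1.76. These encode subunits of complexes I, III, IV and V of the respiratory chain. mt-Nd5 had values of 5583, 4338 and 8863 with Lenvatinib and from 704 to 3601 with DMSO, the 3601 again in set 2 replicate 1 (adjusted p = 0.0281, limma). mt-Co1, a catalytic subunit of cytochrome c oxidase, was the most abundant of them, at 57515, 44653 and 70834 against 11593 to 43361 (log2 fold change 1.46, SE 0.49, adjusted p = 0.0415, limma). Since the mitochondrial share was computed from these same genes, their rise and that of the share are the same measurement.

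Of 74 nuclear genes of the respiratory chain 24 rose and 0 fell, a share of 32.4%, from 0.28 for Cox4i1 to 1.23 for Ndufb3. Of 75 cytosolic ribosomal protein genes 39 rose and 0 fell, a share of 52%, from 0.23 for Rps13 to 1.08 for Rpl34. Of 38 proteasome genes 13 rose and 0 fell, a share of 34.2%, from 0.25 for Psmb6 to 1.10 for Psma2. These shares stood above the 11.4% of all tested genes that rose, but they were not kept under another scaling. After the median of ratios 0, 0 and 1 genes of the 3 lists were higher and 1, 0 and 0 lower. With a block for replicate number in the model 38, 57 and 21 were higher and 4, 0 and 2 lower. With the mitochondrial share in the model 0 genes of these 3 lists passed.

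Among regulators of RNA, 9 of 29 CLK kinases and splicing regulators rose and 1 fell, a share of 34.5% against 12.2% of all tested genes, but after the median of ratios 1 was higher and 3 were lower. Clk1, a kinase that phosphorylates SR proteins, had values of 274, 399 and 407 against 67 to 259 with DMSO (log2 fold change 1.38, SE 0.35, adjusted p = 0.0215, limma). Ddx5, an RNA helicase, fell by 0.34. Of 14 snoRNA host genes 4 rose (28.6%), among them Snhg8 by 1.08, and 0 were higher after the median of ratios. Of 240 numbered Zfp zinc finger genes 16 rose, a share of 6.67% that is below the 11.4% of all genes, the largest being Zfp51 at 1.30, and 2 were higher after the median of ratios. Of 28 genes of the cell cycle and replication 5 rose (17.9%, against 11.4% of all tested genes). Rescaling by the median of ratios gave 0 higher. Mki67, a marker of dividing cells, rose by 0.59 and E2f1, a transcription factor of the entry into S phase, by 0.61.

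In metabolism, the glycolytic genes Tpi1, Pgk1 and Pkm rose by 0.88, 0.50 and 0.46. They were 3 of the 21 genes of glycolysis and hypoxia (14.3%, against 11.4% of all tested genes). After the median of ratios 0 of the 21 were higher. Among 25 genes of sterol and fatty acid synthesis, Nsdhl rose by 1.00 and Cyp51 fell, both enzymes of cholesterol synthesis. This was a share of 8% against 12.2% of all tested genes, and after the median of ratios 0 were higher and 1 lower. Cyp51 had values of 879, 876 and 754 against 999 to 1280 with DMSO, a narrow spread in which the groups did not overlap (log2 fold change -0.52, SE 0.12, adjusted p = 0.0203, limma). Among 25 lysosome and autophagy genes, Lamp1 and Ctsl rose by 0.85 and 0.73, while Hexa and Sqstm1 fell by 0.36 and 0.47. The share that passed was 16% against 12.2% of all tested genes, and after the median of ratios 0 were higher and 7 lower. Sqstm1, which encodes the autophagy receptor p62, had values of 45672, 41587 and 42890 against 48792 to 75663. Ch25h, the cholesterol 25-hydroxylase induced in stimulated macrophages, rose by 0.69 and Alox5ap, the protein that activates 5-lipoxygenase, by 0.32. They were 2 of 11 genes of lipid mediators, nitric oxide and itaconate (18.2%, against 11.4% of all tested genes). After the median of ratios 0 of the 11 were higher.

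In other lists 11.8% of the NRF2, 7.14% of the ATF4, 8.33% of the FOXO and 16.7% of the retroelement silencing genes passed. The share over all tested genes was 12.2%. Of 17 NRF2 antioxidant genes Gsr, glutathione reductase, and Osgin1 rose by 0.75 and 1.00. Slc3a2, a chain of amino acid transporters, rose by 0.44 among 14 genes of the ATF4 stress response, and Bcl6, a transcriptional repressor, by 1.01 among 12 FOXO targets. Of 18 genes of retroelement silencing the DNA methyltransferase Dnmt3a, the histone demethylase Kdm1a and the heterochromatin protein gene Cbx3 rose, by 0.39, 0.90 and 0.93. None of 15 nucleic acid sensors, 12 p53 targets or 12 inhibitors of cytokine signalling passed (0 genes each, limma), with median log2 fold changes of 0.27, 0.08 and -0.07. After the median of ratios 0 of the NRF2, ATF4 and FOXO genes were higher, 1 of the silencing genes was higher, and 1 NRF2 gene and 2 inhibitors of cytokine signalling were lower.

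**Figure D4:**
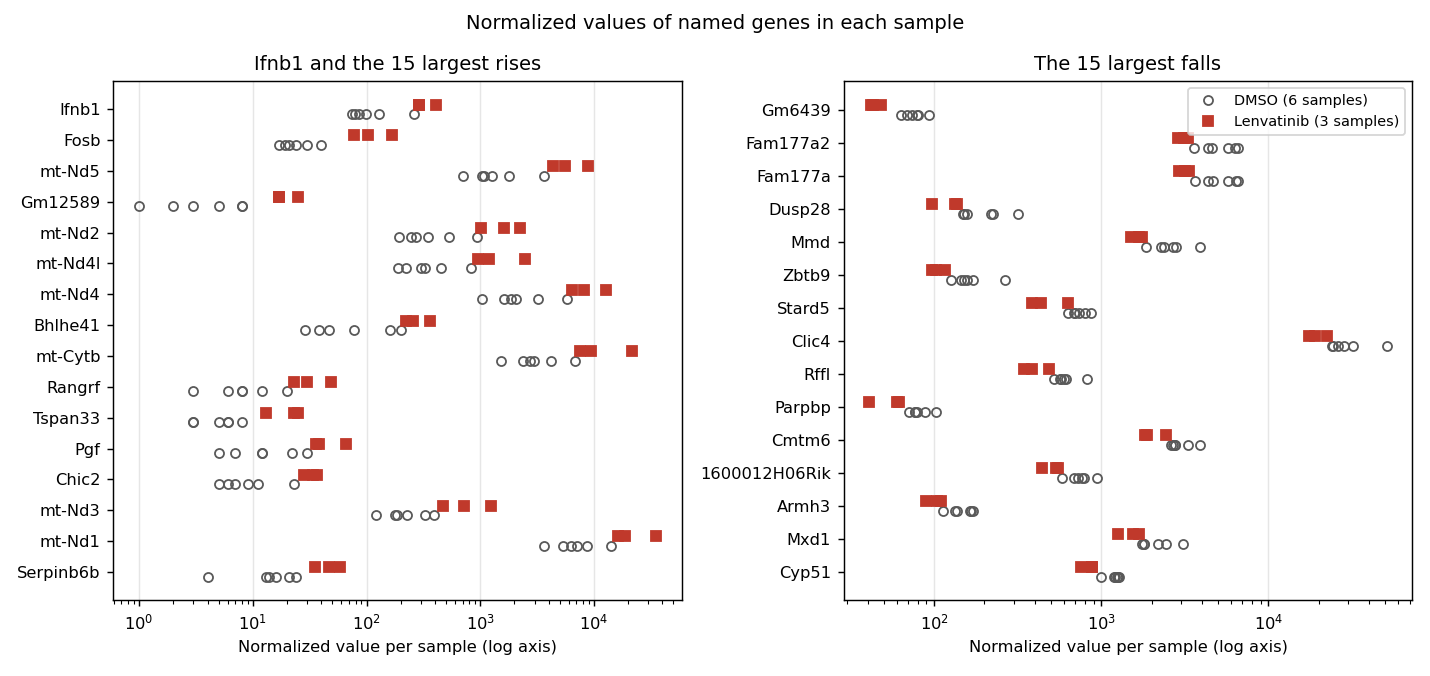
Normalized value in each sample, on a log axis, of Ifnb1 and the 15 genes with the largest rises (left) and of the 15 with the largest falls (right) among the genes past the threshold whose groups did not overlap. The rises span up to 2.15 on the log2 scale for Fosb, the falls at most 0.76 for Gm6439.

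The 15 largest rises with no overlap between the groups were Fosb, mt-Nd5, Gm12589, mt-Nd2, mt-Nd4l, mt-Nd4, Bhlhe41, mt-Cytb, Rangrf, Tspan33, Pgf, Chic2, mt-Nd3, mt-Nd1 and Serpinb6b, so that 7 of them were mitochondrially encoded. Bhlhe41, a repressor of the circadian clock that also acts in tissue macrophages, had values of 255, 359 and 222 against 29 to 200 (log2 fold change 1.92, SE 0.55, adjusted p = 0.0258, limma). Chic2 had values of 34, 28 and 37 against 5 to 23 (log2 fold change 1.76, SE 0.36, adjusted p = 0.00932, limma). Its mean log2 value was the highest of the 59 conditions, as for 198 of the 1446 genes that rose and 352 of all 12714 tested. Several of the 15 genes were low, with Chic2, Gm12589, Rangrf and Tspan33 at or below 49 in all 9 samples, where counting error is large.

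The largest falls with no overlap between the groups were smaller than these rises. They were Gm6439, Fam177a2, Fam177a, Dusp28, Mmd, Zbtb9, Stard5, Clic4, Rffl, Parpbp, Cmtm6, 1600012H06Rik, Armh3, Mxd1 and Cyp51. Fam177a and Fam177a2 may share reads, which was not tested. Their log2 fold changes were -0.70 and -0.71, and they are uncertain as separate genes. Clic4, an intracellular chloride channel protein, had values of 22357, 17445 and 19076 against 24022 to 50994 (log2 fold change -0.62, SE 0.20, adjusted p = 0.0357, limma). Mxd1, which competes with MYC for its partner MAX, had values of 1673, 1556 and 1266 against 1752 to 3103 (log2 fold change -0.52, SE 0.16, adjusted p = 0.0321, limma). Cmtm6, which keeps PD-L1 at the cell surface, fell by 0.55.

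The genes that rose were shorter than the rest, with a median transcript length of 1891.5 bases against 2807 for all tested genes and 2770 for those that fell. Their median GC content was 48.9%, against 49.4% for all genes and 48.4% for those that fell, known for at least 94.5% of each set. Pseudogenes made up 15.9% of the genes that rose, 2.94% of those that fell and 11.4% of all tested genes. In the DMSO samples, the genes that fell had a median of their means of 1351 and the genes that rose of 196.

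To ask whether Lenvatinib stood apart from the other inhibitors without using any DMSO sample, it was compared with the mean of the other 57. No gene passed in either direction (0%, limma), and 1541 of 12714 had an unadjusted p under 0.05. The log2 differences ranged from -1.03 to 1.36, with a median of 0.12 over all tested genes. For the 1446 genes that rose against DMSO the median was 0.39, and for the 102 that fell it was -0.19. With rank 1 the highest of 59 conditions, the median rank of DMSO was 55 for the 1446, 5 for the 102 and 39 for all tested genes. As the 1446 and the 102 were picked by a test on these same Lenvatinib and DMSO samples, their medians and ranks are no further evidence. The median change from DMSO was above 0 in 54 of the 58 inhibitors. For Ifnb1, the 171 samples of the other inhibitors ranged from 7 to 2207 with a median of 179, and Lenvatinib was 0.82 higher (95% interval 0.17 to 1.47, adjusted p = 0.392, limma). For Fosb they ranged from 9 to 384 with a median of 46, and Lenvatinib was 1.12 higher (95% interval 0.41 to 1.84, adjusted p = 0.392, limma). Counted by genes past the threshold against DMSO, Lenvatinib was the tenth of the 58 inhibitors, with a median of 23 genes and 17 inhibitors at 0.

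Lenvatinib was last compared with 3 inhibitors that share its targets, each at its own dose, so that doses differ between them. Vandetanib, also chosen for RIPK2, and Telatinib, also made against VEGF receptors, gave 0 genes past the threshold against Lenvatinib (limma), with 896 and 154 genes at an unadjusted p under 0.05. Ifnb1 was at 220, 237 and 154 with Vandetanib, and the log2 difference was 0.70 (95% interval -0.21 to 1.61, adjusted p = 0.69, limma). It was at 303, 380 and 126 with Telatinib, with a log2 difference of 0.41 (95% interval -0.50 to 1.32, adjusted p = 1, limma). Fosb was at 65, 112 and 108 with Vandetanib (log2 difference 0.26, 95% interval -0.74 to 1.26, limma). With Telatinib Fosb was at 71, 85 and 176 (log2 difference 0.12, 95% interval -0.89 to 1.12, limma). All these intervals hold 0 and also differences of more than 1, so that the inhibitors are not shown to act alike.

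Against Vatalanib, another inhibitor of VEGF receptors, 42 genes (0.33%) were higher and 10 (0.0787%) lower with Lenvatinib. Bcl2, which protects cells from apoptosis, was at 44, 54 and 37 with Lenvatinib and at 2, 22 and 14 with Vatalanib (log2 difference 2.17, SE 0.33, adjusted p = 2.32e-05, limma). Sncaip, the gene of a synuclein-binding protein, was at 13, 23 and 23 against 3, 1 and 6, and Dmwd at 17, 50 and 29 against 6, 8 and 7. The largest differences in the other direction were in H2-Q6, H2-Q5 and H2-Q7, neighbouring class I genes with near-identical sequences that may share reads, by -0.99, -0.82 and -0.79. H2-Q6 was at 250, 217 and 226 with Lenvatinib, at 531, 435 and 415 with Vatalanib and at 254 to 338 with DMSO. Ifnb1 was at 89, 96 and 104 with Vatalanib, below all 3 Lenvatinib values. The log2 difference was 1.75 (95% interval 0.84 to 2.66, adjusted p = 0.0526, limma). For Fosb it was 0.90 (95% interval -0.10 to 1.90, adjusted p = 0.384, limma). Without Lenvatinib replicate 3 or Vatalanib replicate 1, 2 genes passed against Vatalanib, and without Lenvatinib replicate 2 there were 7 and without Vatalanib replicate 2 there were 34.

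**Figure D5:**
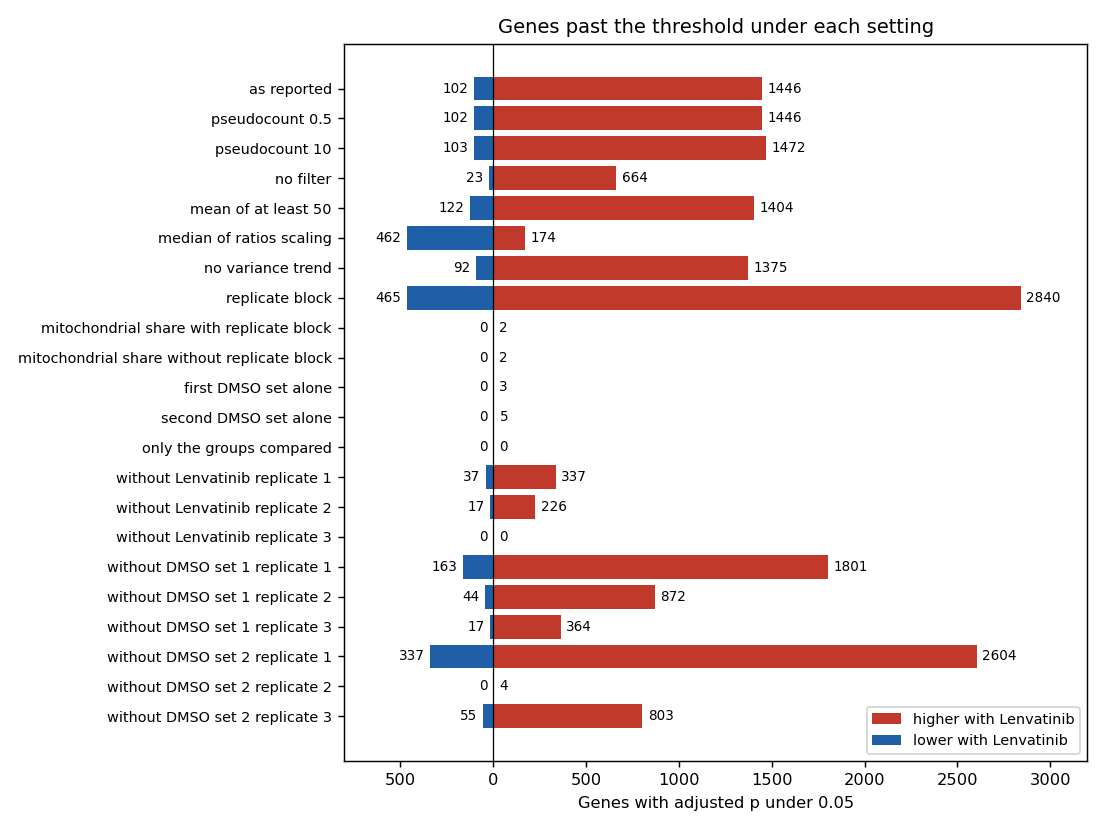
Number of genes higher (right) and lower (left) with Lenvatinib than with DMSO at an adjusted p under 0.05, as reported and under each other setting. The counts run from 0 in both directions without Lenvatinib replicate 3 to 2840 (22.3%) and 465 (3.66%) in a model with a block for replicate number.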

How the data were processed

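PolyA RNA of mouse BMDM was sequenced after SMART-seq2 amplification and Tn5 tagmentation. According to the submitters' notes and the methods, the authors aligned single-end reads to mm10 with TopHat2 2.1.1, removed blacklisted regions with bedtools 2.29.2, counted reads on RefSeq exons with R packages, scaled each sample on invariant genes, and deposited the values rounded to whole numbers. These deposited values were treated as a score without a fixed unit, called normalized value, since they are no longer counts. The authors used DESeq2 in R 3.6.2. Here limma 3.58.1 (R 4.3.3) was fitted to log2(value + 1) with a variance trend over all 59 groups and 12714 genes with a mean of at least 10. All 180 columns were matched to samples by name and 0 were left over. Other steps ran in Python 3.11.15 (matplotlib 3.10.9, SciPy 1.17.1, pandas 2.3.3, NumPy 2.4.6). The number of reads was estimated from the whole numbers that scaling leaves empty, which in 25 simulated samples gave an error of at most 0.013%. Log2 fold changes are on the log2(value + 1) scale and understate the change of low genes.

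Genes named are Ifnb1, members of the 40 gene lists, the 15 largest rises and 15 largest falls past the threshold without overlap between groups, and the 3 largest differences each way from each compared inhibitor. Members and lists were chosen with earlier results of these data known. Abhd3, Gm16675, Npy, Prmt1, Slc16a6, Kmt5a, Ubqln1 and Zcchc17 were named after their values were seen. The alternatives were other pseudocounts, filters and scalings, no variance trend, a replicate block, the mitochondrial share as a covariate (without the block, added after seeing the data), each DMSO set alone, only the groups compared, a log2 fold change of at least 1, and leaving out each sample. No source used here says that counting respected strand, so overlapping genes on opposite strands are uncertain.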

Additional observations from a re-analysis of the deposited data

Results flagged for a closer look

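Of 112 sets of 6 DMSO values examined, 10 held a sample far from the other 5, where chance alone would flag about 5%. In each case the sample was replicate 1 or replicate 2 of DMSO set 2, the samples with the highest and the lowest mitochondrial share. Replicate 1 stood apart in mt-Nd5 (3601), Chic2 (23), Ifnb1 (262), C1qc (3478) and Ndufb3 (383), where it was the highest, and in Cyp51 (999), where it was the lowest. Replicate 2 stood apart in Zbtb9 (267), Clic4 (50994) and Rffl (819), where it was the highest, and in Pgk1 (1836), where it was the lowest. In these genes replicate 1 departed from the other DMSO samples toward the Lenvatinib values, and replicate 2 away from them. The part of these samples in the results was measured by leaving them out, which gave 2604 genes higher and 337 lower without replicate 1 and 4 and 0 without replicate 2.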

How the results depend on the processing

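The pseudocount, a minimum mean of 50 and the variance trend changed little. Genes higher and lower with Lenvatinib than with DMSO numbered 664 and 23 without a filter on low values, 174 and 462 with the median of ratios, 309 and 2 with a log2 fold change of at least 1, 3 and 0 against set 1, 5 and 0 against set 2, 0 and 0 when only the groups compared were fitted (3269 at an unadjusted p under 0.05), and 2 and 0 with the mitochondrial share, both with the replicate block (Fosb and Prmt1) and without it. Leaving out 1 sample gave 0 to 2604 higher and 0 to 337 lower. Ifnb1 was above DMSO under every alternative, from 0.71 to 1.81, but did not pass with the mitochondrial share (0.78 with the block, adjusted p = 0.294, and 0.71 without), against set 1 (1.71, adjusted p = 0.0772) or set 2 (1.42, adjusted p = 0.0833), or when only the groups compared were fitted (1.56, adjusted p = 0.0794). Leaving out 1 sample moved it between 1.39 and 1.81. Over 104 single genes named here every alternative kept the direction. The cause of these losses was not tested.

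Without a filter, 242 genes were higher and 2 lower than with the other inhibitors, 238 differed from Vandetanib, 202 from Telatinib and 314 from Vatalanib. Leaving out 1 Lenvatinib sample gave 0 higher and 0 to 1 lower than with the other inhibitors. Against Vatalanib there were 28 genes with the median of ratios, 22 with the mitochondrial share without the replicate block and 55 with it, 435 when only the groups compared were fitted, 21 with a log2 difference of at least 1 and 2 to 60 without 1 sample. The mitochondrial share differed by 0.935 percentage points from set 1 and 0.862 from set 2 (exact permutation p = 0.1, the smallest possible) and by 0.648 to 1.08 without 1 sample.

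Replicate numbers are shared by the groups, but the deviations of same-numbered samples were correlated at more than 0.1 in 5 of 6 pairs only (0.056 for Lenvatinib replicate 2 with set 1), and 5 of 6 correlated best with their own number. Between the DMSO sets the same-numbered samples correlated at 0.55, 0.35 and 0.54 and all others below 0, a hint from the data that the numbers are shared. As 1 pair fell short of 0.1 and no label ties the numbers to a batch or day, the numbers were not taken as pairing the samples. With the replicate block 2840 genes were higher and 465 lower than with DMSO, all 1446 and 102 among them, and 241 differed from Vatalanib. The mitochondrial share, at 0.898, had an exact permutation p of 0.0741 within numbers, the smallest this test can give.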
